A study of Mus musculus with 12 samples.

Results

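The genes of glycolysis and of the transcriptional response to low oxygen were examined as a set of 36 genes chosen by their roles: carriers that bring glucose in and take lactate out, enzymes of glycolysis, regulators of its flux, components of the oxygen-sensing system and established targets of that system. Of the 36 genes, 33 were measured on a probe set assigned to that gene alone, out of 18193 genes so measured. Bnip3l lay only on probe sets shared with a second gene, and Gpi1 and Eno1 had no probe set in the array annotation used, so these 3 genes were not analysed here. For a gene with several probe sets, the one with the highest mean over all arrays was taken.

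The cells were MC38, a mouse colon carcinoma line, grown alone as monolayers. They received 100 nM GDC-0623, an inhibitor of the kinase MEK in the RAS/RAF/MEK/ERK pathway, or the solvent DMSO, and RNA was taken 24 h or 72 h after that addition. Each of the 4 combinations of treatment and time held 3 biological replicates, so that 12 one-colour Affymetrix mouse arrays were available. All groups were the same line, with no genetic change and no oxygen treatment named in the labels.

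Glycolysis splits glucose into pyruvate in a sequence of enzymatic steps, and tumour cells commonly reduce much of that pyruvate to lactate even when oxygen is present. When oxygen falls, prolyl hydroxylases of the Egln family no longer mark the alpha subunit of hypoxia-inducible factor (HIF) for destruction, and HIF then binds DNA at the core letters ACGTG or GCGTG and raises genes of glucose uptake, glycolysis, blood vessel growth, mitochondrial turnover and collagen hydroxylation. ERK signalling is known to act on several of these genes as well, for instance through Myc and AP-1. HIF itself is controlled largely at the protein level, which an expression array does not measure.

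These core letters were searched on both strands in the 250 bases before each RefSeq transcription start (GRCm38.p6), and a window was present for 32 of the 36 genes. ACGTG occurred in 20 of the 32 (62.5%), against 20.0% of 17491 protein-coding genes with a window. GCGTG occurred in 21 (65.6%, against 36.7%), and at least one of both in 29 (90.6%, against 47.1%). The palindrome CACGTG, which contains ACGTG on either strand and is also the E-box core, occurred in 6 (18.8%, against 7.61%). A gene was counted if any of its windows held the motif, and the 32 genes had 46 windows, against 21262 for the 17491 genes. The windows of the set were richer in G and C, with a median of 62.2% against 55.6%. The set was also chosen to include established HIF targets, so its motif shares are not independent of that choice. The parts of this choice, window number and base composition in the motif shares were not tested. The windows of 6 genes are printed because they hold the same letters in front of genes that behaved differently on the arrays. Capitals mark ACGTG as read on the strand of the gene, or its reverse complement CACGT.
Slc2a1, chr4:119108697-119108725, plus strand, motif 36 bases before the start: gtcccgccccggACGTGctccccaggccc
Hk2, chr6:82774490-82774518, minus strand, motif 52 bases before the start: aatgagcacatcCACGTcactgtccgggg
Bnip3, chr7:138909598-138909626, minus strand, motif 108 bases before the start: gcgcacgcgccgCACGTgccacacgctcc
P4ha2, chr11:54100834-54100862, plus strand, motif 78 bases before the start: tgtgcatcgcatACGTGcagcgcgtggcg
Ldha, chr7:46845745-46845773, plus strand, motif 47 bases before the start: ggcccagcctacACGTGggttcccgcacg
Pgk1, chrX:106186938-106186966, plus strand, motif 150 bases before the start: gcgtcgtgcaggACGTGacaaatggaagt
The motifs printed for Bnip3 and Ldha lie in the palindrome CACGTG. A match of letters is a description of the window and shows no binding.

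Values are log2 RMA values, in which 1 unit is a 2-fold difference, and levels are compared within a gene only. Differences were tested with limma across all probe sets, and a gene was called at an adjusted p below 0.05 (Benjamini-Hochberg). The GDC-0623 effect is GDC-0623 minus DMSO at one time, and the change with culture time is 72 h minus 24 h within one treatment. The comparisons share arrays: the 72 h DMSO arrays, for example, serve both the 72 h GDC-0623 effect and the change with time in DMSO. Their values are therefore given side by side and not as support for each other.

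Array medians lay between 4.63 and 4.7, and the median SD over genes was between 0.0751 (24 h DMSO) and 0.106 (72 h GDC-0623). On the first principal component, 1 treated 72 h array, replicate 1, lay at 77.4 and the other 2 at 44.8 and 49.8. The 3 transcripts taken to report ERK output (Egr1, Dusp6 and Etv5) were called lower with the inhibitor at both times. The effect on Egr1 was −4.90 after 24 h and −5.57 after 72 h. Dusp6 averaged 10.07 in DMSO and 7.94 in GDC-0623 at 24 h, and 10.9 and 9.41 at 72 h. Etv5 averaged 8.23 and 4.77 at 24 h, and 8.98 and 6.17 at 72 h. The median effect of the 3 was −3.46 at 24 h and −2.81 at 72 h, and none was called in the difference of effects. With time in GDC-0623, 2 of the 3 were called higher. Of 7 epithelial markers, Epcam had group means of 5.34 to 5.62, and Cdh1 lay at 2.61 to 2.72, in the background range, on a line named as colon carcinoma. Vim, a mesenchymal marker, lay at 13.57 to 13.77. Averaged over 5 fibroblast markers, the 3 arrays of a group ranged from 8.62 to 8.69 in 24 h DMSO, 8.99 to 9.08 in 72 h DMSO, 9.05 to 9.11 in 24 h GDC-0623 and 9.98 to 10.22 in 72 h GDC-0623, and 3 of the 5 (Dcn, Col1a1 and Col1a2) were called higher with the inhibitor at 72 h, while Pdgfra and Vim were not. Col1a1 averaged 4.2 in 24 h DMSO, 4.21 in 24 h GDC-0623 and 4.18 in 72 h DMSO, in the background range. In 72 h GDC-0623 it averaged 5.09. Averages over the leukocyte and over the endothelial markers lay at 3.74 to 4.10 on every array. Of the single markers of the other lists, the leukocyte gene Lyz2 was called higher (0.51) and the epithelial gene Krt8 lower (−0.40) with the inhibitor at 72 h. The part of the shift in fibroblast markers in the results below was not tested.

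With longer culture in DMSO, 18 of the 33 genes rose and none fell, while 8.41% of all genes were called higher and 5.14% lower. The median change was 0.30 over the set and −0.02 over all genes. All 9 measured hypoxia targets rose (median 0.79), whereas none of the 5 measured enzymes from Pgk1 to Ldha was called (median 0.11). With a trended and robust prior, Pgk1 (0.14, limma adjusted p = 0.00364) and Ldha (0.11, adjusted p = 0.0253) of those 5 were called higher. In GDC-0623, 17 genes rose with time and 1 fell, beside 5.79% and 3.11% of all genes (8.9% in either direction), with a median of 0.34 against −0.03.

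With the inhibitor, genes of the set were called in both directions. At 24 h, 6 genes were higher and 6 lower with GDC-0623, while 13.3% of all genes were called higher and 8.23% lower, and the set's median was −0.01. At 72 h, 12 were higher and 7 lower, beside 13.8% and 12.4% of all genes (26.3% in either direction), with a median of 0.10. Without 72 h DMSO replicate 2 the number higher at 72 h was 6, and without replicate 1 it was 7. Called higher at both times were 6 genes (Bnip3, Hif1a, Hk1, Ndrg1, P4ha2 and Pfkp) and 6 lower at both (Egln3, Hk2, Slc16a1, Slc2a1, Slc2a3 and Vegfa). The shares of all genes called alike at both times were not counted. In the fit of the values as deposited, no gene of the set was called in opposite directions at 24 h and 72 h. When arrays were scaled to their hybridization controls, which moved the median of all genes by 0.17 for the 24 h effect, Slc2a1, Slc2a3, Slc16a1 and Vegfa were not called at 24 h, while Pfkm (0.37, limma adjusted p = 0.0417) and Ankrd37 (0.47, adjusted p = 0.00514) were called higher. The 24 h counts were then 8 higher and 2 lower, the latter Hk2 and Egln3, and Ankrd37 was called higher at 24 h and lower at 72 h (−0.59). The same scaling ended the calls with time in GDC-0623 of Hk1, Pfkp, Aldoa, Ldha and Car9. It also ended, at sizes no smaller than before, those of Hif1a (0.32) and Egln1 (0.30) at 72 h and those of Hif1a (0.33) and P4ha1 (0.34) with time in DMSO.

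Setting the 72 h inhibitor effect beside the rise with time in DMSO divided the 18 risers into 3 kinds. Of these, 8 were also higher with GDC-0623 at 72 h (Adm, Bnip3, Hif1a, Higd1a, Ndrg1, P4ha1, P4ha2 and Pfkp). Another 5 were lower with it (Ankrd37, Egln3, Hk2, Slc2a1 and Vegfa). The inhibitor effect on the other 5 (Aldoa, Car9, Pdk1, Pfkfb4 and Slc16a3) was not called at 72 h. Those lower with the inhibitor thus included the glucose carrier Slc2a1 and the hexokinase Hk2, and those higher with it included both collagen hydroxylase subunits, although all 4 rose in DMSO culture. The shares of these kinds among all genes that rose in DMSO were not counted, so the division has no background beside it. The 72 h DMSO arrays enter both comparisons.

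**Figure D1:**
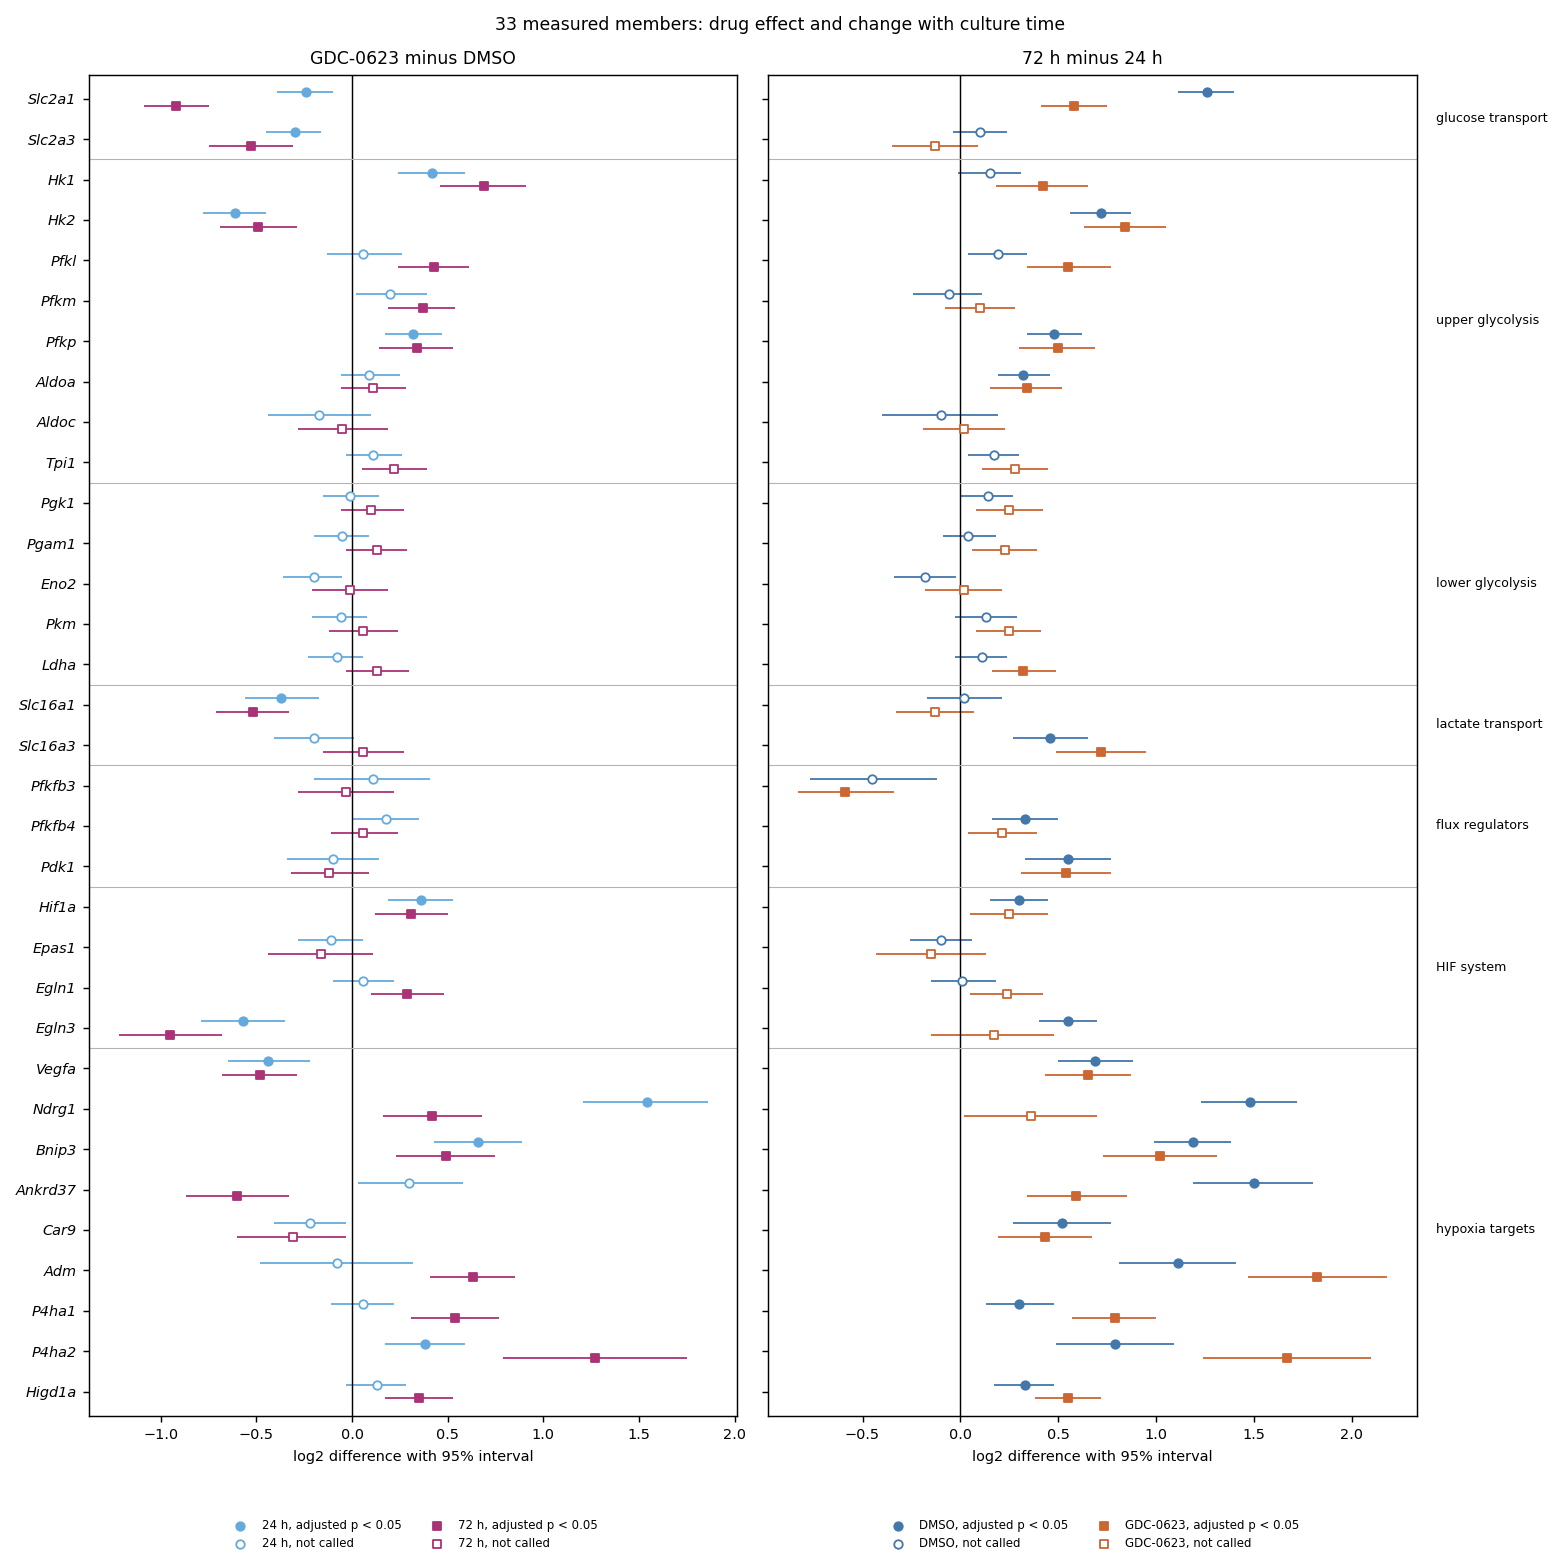
Log2 differences (x axis) of the 33 measured genes, grouped by role, with 95% intervals: GDC-0623 minus DMSO at 24 h and 72 h on the left, and 72 h minus 24 h in DMSO and GDC-0623 on the right. Filled symbols were called at an adjusted p below 0.05 (limma). On the right, all 9 hypoxia targets are filled and above 0 in DMSO, and on the left the same role spreads from −0.60 (Ankrd37) to 1.27 (P4ha2) at 72 h.

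Both glucose carriers were called lower with the inhibitor at both times. Neither 24 h call held under scaling to hybridization controls (−0.08 for Slc2a1 and −0.14 for Slc2a3). Slc2a1, which encodes the widespread carrier GLUT1 (chr4:119108745-119137330), measured 9.96, 9.90 and 9.87 in 24 h DMSO and 9.64, 9.68 and 9.68 in 24 h GDC-0623. The 72 h arrays read 11.19, 11.11 and 11.20 in DMSO and 10.27, 10.28 and 10.18 in GDC-0623. The 4 groups did not overlap, and the 72 h DMSO arrays were the highest. The rise with time in DMSO was 2.39-fold (1.26 ± 0.06 on the log2 scale, limma adjusted p = 4.01e-05, n = 3 per group) and that in GDC-0623 was 1.49-fold (0.58 ± 0.07). The inhibitor effect was −0.24 ± 0.07 at 24 h (adjusted p = 0.0318) and −0.92 ± 0.08 at 72 h (adjusted p = 7.76e-05). The effect was 0.68 lower at 72 h than at 24 h by the test of the difference itself (−0.68 ± 0.09, adjusted p = 0.00121). All 3 Slc2a1 probe sets were called lower in that test, at −0.68, −0.65 and −0.54. The small effect at 24 h lost its call without any one of the 6 arrays (adjusted p 0.0603 to 0.114).

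Slc2a3, the high-affinity carrier GLUT3, measured 7.76, 7.76 and 7.82 in 24 h DMSO and 7.45, 7.49 and 7.49 in 24 h GDC-0623. After 72 h the values were 7.94, 7.86 and 7.84 in DMSO and 7.18, 7.53 and 7.34 in GDC-0623. Treated and control arrays did not overlap at either time. The inhibitor effect was −0.30 ± 0.06 at 24 h (limma adjusted p = 0.011) and −0.53 ± 0.10 at 72 h (adjusted p = 0.00528). As the mean of its 4 probe sets the 24 h effect was −0.11 and not called (adjusted p = 0.199). That mean includes probe sets at 3.83 and 3.28, in the background range. The second brightest Slc2a3 probe set gave −0.12 at 24 h (adjusted p = 0.246) and −0.58 at 72 h (adjusted p = 0.0034). Unlike its relative, Slc2a3 was not called with time in either treatment (0.10 ± 0.06 in DMSO, −0.13 ± 0.10 in GDC-0623).

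The hexokinases, which trap glucose in the cell by phosphorylation, went opposite ways. Hk2, the inducible form, measured 8.68, 8.72 and 8.69 in 24 h DMSO and 8.00, 8.20 and 8.05 in 24 h GDC-0623, and at 72 h 9.38, 9.52 and 9.34 in DMSO and 8.96, 9.01 and 8.80 in GDC-0623. No treated array reached a control array of the same time. Hk2 was lower with the inhibitor by 1.53-fold at 24 h (−0.61 ± 0.07, limma adjusted p = 0.000586) and by 1.40-fold at 72 h (−0.49 ± 0.09, adjusted p = 0.00468). It rose with time by 0.72 ± 0.07 in DMSO and by 0.84 ± 0.09 in GDC-0623, and the inhibitor effects at 24 h and 72 h were not called different (0.12, 95% interval −0.12 to 0.37).

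Hk1, the constitutive form bound to mitochondria, measured 9.04, 8.91 and 9.0 in 24 h DMSO and 9.50, 9.41 and 9.29 in 24 h GDC-0623. Its 72 h values were 9.16, 9.04 and 9.19 in DMSO and 10.00, 9.68 and 9.77 in GDC-0623. Treated arrays lay above control arrays at both times. The inhibitor effect was 0.42 ± 0.08 at 24 h (limma adjusted p = 0.00592) and 0.69 ± 0.10 at 72 h (adjusted p = 0.00149). The change with time was not called in DMSO (0.15 ± 0.07), and the rise in GDC-0623 (0.42 ± 0.10, adjusted p = 0.0416) lost its call when any of 5 of its 6 arrays was left out, all but 72 h GDC-0623 replicate 2 (adjusted p up to 0.157).

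The 3 phosphofructokinase genes, for the step that commits sugar to glycolysis, were each higher with the inhibitor at 72 h. Pfkl, the liver-type subunit, measured 9.94, 9.83 and 9.86 in 72 h DMSO and 10.41, 10.26 and 10.24 in 72 h GDC-0623, without overlap (0.43 ± 0.08, limma adjusted p = 0.00582). At 24 h its DMSO arrays (9.69, 9.76 and 9.61) overlapped the treated ones (9.80, 9.86 and 9.59), and the difference of 0.06 ± 0.09 was not called. Pfkl rose with time in GDC-0623 (0.55 ± 0.10), and its change in DMSO was 0.19 ± 0.07 (not called).

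Pfkp, the platelet-type subunit, measured 7.49, 7.53 and 7.53 in 24 h DMSO and 7.90, 7.77 and 7.84 in 24 h GDC-0623, and at 72 h 8.03, 7.93 and 8.03 in DMSO and 8.45, 8.33 and 8.22 in GDC-0623. The groups of one time did not overlap. Its inhibitor effect was 0.32 ± 0.07 at 24 h and 0.34 ± 0.09 at 72 h, and its rise with time was 0.48 ± 0.06 in DMSO and 0.50 ± 0.09 in GDC-0623. The 72 h effect lost its call without any of 5 of the 6 arrays, all but 72 h GDC-0623 replicate 3 (adjusted p up to 0.0884), and was 0.16 (adjusted p = 0.191) as the mean of the 3 Pfkp probe sets. Without 24 h GDC-0623 replicate 2 the rise in GDC-0623 lost its call (adjusted p = 0.0602). Pfkm, the muscle-type subunit, was 0.37 ± 0.08 higher with GDC-0623 at 72 h (adjusted p = 0.00909) and 0.20 ± 0.08 at 24 h (not called).

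The later enzymes differed little between the groups. Aldoa, the main aldolase, rose with time by 0.32 ± 0.06 in DMSO (limma adjusted p = 0.0105) and by 0.34 ± 0.08 in GDC-0623 (adjusted p = 0.0378), the latter not called without any one of the 6 arrays (adjusted p 0.0624 to 0.105). Its relative Aldoc lay at 3.79 to 3.96 in the group means, in the background range, and was called in no comparison. Tpi1, Pgk1, Pgam1 and Pkm, for triose isomerisation, the ATP-yielding phosphoglycerate kinase step, phosphoglycerate shift and pyruvate formation, were called in no comparison either. At 72 h their inhibitor effects were 0.22, 0.10, 0.13 and 0.06, and their changes in GDC-0623 culture were 0.28, 0.25, 0.23 and 0.25 with adjusted p from 0.0566 to 0.0904. In 1 fit over all 12 arrays all 4 were called higher with time in GDC-0623, and Tpi1 was called higher with the inhibitor at 72 h (0.22, adjusted p = 0.0163). Eno2, the neuronal enolase, had group means in the background range and no call.

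Ldha, which reduces pyruvate to lactate, measured 12.69, 12.74 and 12.66 in 24 h DMSO and 12.63, 12.60 and 12.61 in 24 h GDC-0623. At 72 h it measured 12.79, 12.80 and 12.82 in DMSO and 12.92, 12.98 and 12.91 in GDC-0623. The groups did not overlap, but the inhibitor effects were small (−0.08 ± 0.06 at 24 h, adjusted p = 0.443, and 0.13 ± 0.07 at 72 h, adjusted p = 0.25, limma). Its 95% intervals, −0.23 to 0.06 and −0.03 to 0.30, leave out a change as large as that of Slc2a1 at 72 h. The change with time was 0.11 ± 0.06 in DMSO (not called) and 0.32 ± 0.07 in GDC-0623 (adjusted p = 0.0299), the latter not called without any one of the 6 arrays (adjusted p 0.0526 to 0.114). The window of Ldha printed above holds the palindrome, and that of Pgk1 holds ACGTG, and neither gene was called with time in DMSO. ACGTG was in 70.6% of 17 risers with a window and in 61.5% of 13 genes not called. For GCGTG these shares were 64.7% and 69.2%, for at least one of both 100.0% and 84.6%, and for the palindrome 11.8% and 30.8%. They describe few genes and were not tested.

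Lactate leaves cells through monocarboxylate carriers. Slc16a1 (MCT1), which carries lactate both ways, measured 11.56, 11.70 and 11.73 in 24 h DMSO and 11.19, 11.26 and 11.44 in 24 h GDC-0623, and at 72 h 11.59, 11.81 and 11.65 in DMSO and 11.14, 11.22 and 11.13 in GDC-0623. Treated arrays lay below control arrays at both times. The inhibitor effect was −0.37 ± 0.09 at 24 h (limma adjusted p = 0.0178) and −0.52 ± 0.08 at 72 h (adjusted p = 0.00266), and no change with time was called. The 24 h effect lost its call without 24 h DMSO replicate 2 or 3 or 24 h GDC-0623 replicate 1 or 2 (adjusted p up to 0.0669), and as the mean of both probe sets (−0.24, adjusted p = 0.0558).

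Slc16a3 (MCT4), a lactate exporter of glycolytic cells and a known HIF target, was called with time and not with the inhibitor. It measured 6.23, 6.21 and 6.04 in 24 h DMSO and 6.10, 5.99 and 5.79 in 24 h GDC-0623, and at 72 h 6.74, 6.53 and 6.59 in DMSO and 6.81, 6.65 and 6.59 in GDC-0623. Treated and control arrays overlapped at both times, and no inhibitor effect was called (−0.20 ± 0.09 and 0.06 ± 0.09). Slc16a3 rose with time by 0.46 ± 0.08 in DMSO (limma adjusted p = 0.0104) and by 0.72 ± 0.10 in GDC-0623 (adjusted p = 0.00356).

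None of the 3 flux regulators had a called inhibitor effect. Pdk1, the kinase that turns off pyruvate dehydrogenase, rose with time by 0.55 ± 0.10 in DMSO and 0.54 ± 0.10 in GDC-0623, with inhibitor effects of −0.10 and −0.12. Its rise in GDC-0623 lost its call without 24 h GDC-0623 replicate 1 or 3 (limma adjusted p up to 0.0762). Pfkfb3 and Pfkfb4 both make fructose 2,6-bisphosphate, an activator of phosphofructokinase, and differed in their change with time. Pfkfb3 measured 5.90, 6.42 and 6.31 in 24 h DMSO, 6.13, 6.38 and 6.44 in 24 h GDC-0623, 5.57, 5.88 and 5.84 in 72 h DMSO and 5.74, 5.58 and 5.87 in 72 h GDC-0623. The 72 h arrays lay below the 24 h arrays in each treatment, with a fall in GDC-0623 of −0.59 ± 0.11 (adjusted p = 0.0134) and a difference in DMSO of −0.45 ± 0.14 (adjusted p = 0.0839). Without 24 h GDC-0623 replicate 2 or 3 the fall was not called (adjusted p up to 0.0729), and without 24 h DMSO replicate 1 the difference in DMSO was called (−0.60, adjusted p = 0.0202). Pfkfb4 rose in DMSO by 0.33 ± 0.07 (adjusted p = 0.0266), which was not called without 24 h or 72 h DMSO replicate 1 or 3 (adjusted p up to 0.0881).

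Among the HIF components, Hif1a and Egln3 moved in opposite directions with the inhibitor. Hif1a, the oxygen-regulated subunit, measured 10.51, 10.51 and 10.65 in 24 h DMSO and 10.99, 10.91 and 10.84 in 24 h GDC-0623. The 72 h arrays read 10.86, 10.86 and 10.84 in DMSO and 11.25, 11.02 and 11.22 in GDC-0623. Treated arrays were higher at both times, by 1.28-fold (0.36 ± 0.08, limma adjusted p = 0.0105) and 1.24-fold (0.31 ± 0.08, adjusted p = 0.0306). It rose by 0.30 ± 0.06 in DMSO culture (adjusted p = 0.0231), and its change in GDC-0623 was 0.25 ± 0.09 (not called). The 72 h effect was not called without 5 of the 6 arrays in turn (all but 72 h GDC-0623 replicate 2, adjusted p up to 0.0911), nor was the rise in DMSO (all but 24 h DMSO replicate 3, adjusted p up to 0.0821). As the mean of the 4 Hif1a probe sets, neither inhibitor effect was called (0.15, adjusted p = 0.084, and 0.23, adjusted p = 0.0639), nor was the rise in DMSO (0.16, adjusted p = 0.126). That mean includes a probe set at 3.39, in the background range. The second brightest probe set was called higher with the inhibitor at both times (0.35, adjusted p = 0.0103, and 0.32, adjusted p = 0.0325). Its change in DMSO was not called (0.17, adjusted p = 0.167). A dimmer Hif1a probe set was not called with the inhibitor (−0.07 at 24 h and 0.29 at 72 h) but did rise with time in GDC-0623 (0.55, adjusted p = 0.0224).

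Egln3, a prolyl hydroxylase that HIF induces in a feedback loop, measured 7.78, 7.85 and 7.81 in 24 h DMSO and 7.02, 7.33 and 7.39 in 24 h GDC-0623. After 72 h the values were 8.28, 8.36 and 8.45 in DMSO and 7.23, 7.69 and 7.32 in GDC-0623. Every treated array, also those of 72 h, lay below every DMSO array of either time. Egln3 was 1.48-fold lower at 24 h (−0.57 ± 0.10, limma adjusted p = 0.00399) and 1.93-fold lower at 72 h (−0.95 ± 0.12, adjusted p = 0.000793). It rose with time in DMSO by 0.55 ± 0.07 (adjusted p = 0.00216), and the change in GDC-0623 was 0.17 ± 0.14 (not called), while the difference between the 2 inhibitor effects was not called (−0.38 ± 0.17, adjusted p = 0.31). A dimmer Egln3 probe set was not called with the inhibitor at 24 h (−0.17, limma adjusted p = 0.179) and was lower at 72 h (−0.65, adjusted p = 0.00686). Egln1, the main HIF hydroxylase under normal oxygen, was 0.29 ± 0.08 higher with GDC-0623 at 72 h (adjusted p = 0.0406), a call lost without any one of the 6 arrays (adjusted p 0.0603 to 0.14). Epas1, the HIF-2 alpha subunit, lay in the background range and was called in no comparison.

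**Figure D2:**
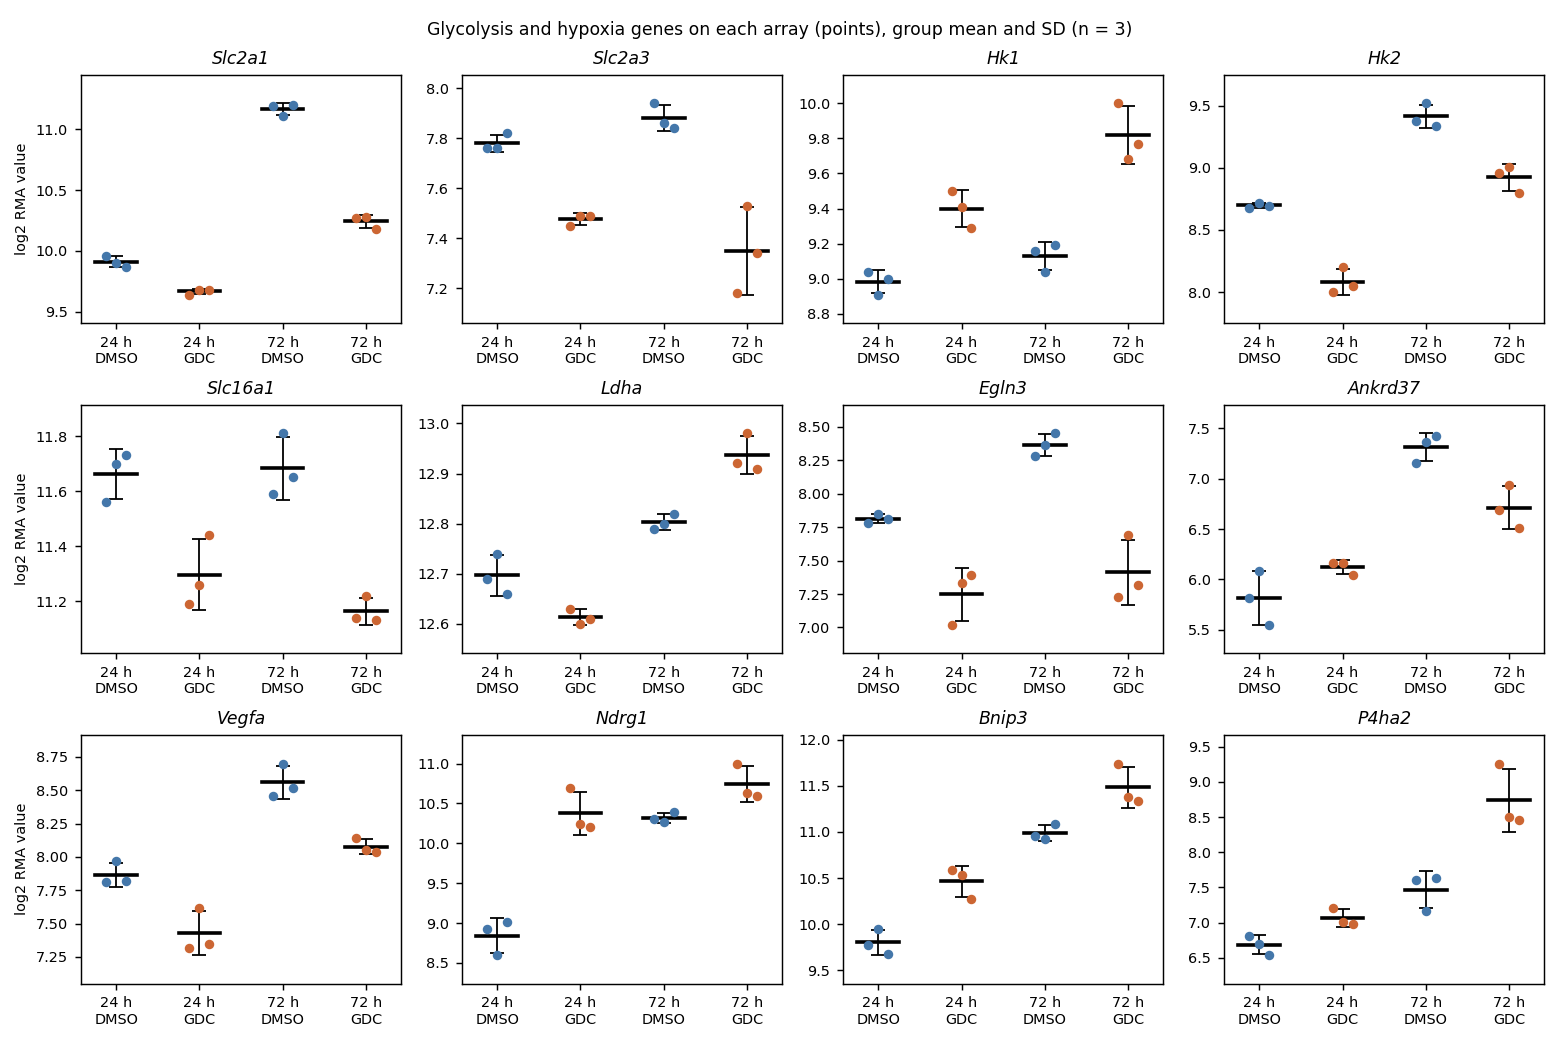
Log2 RMA values (y axis, its range set for each gene) of 12 genes on each array, by group, with the group mean and SD (n = 3). Blue points are DMSO and orange points GDC-0623. Slc2a1, Hk2, Egln3, Ankrd37 and Vegfa have their highest values in 72 h DMSO, whereas Hk1, Ndrg1, Bnip3 and P4ha2 have their highest group mean in 72 h GDC-0623.

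The hypoxia targets all rose in DMSO culture but differed in their response to GDC-0623. Vegfa, the main growth factor for blood vessels, measured 7.81, 7.97 and 7.82 in 24 h DMSO and 7.32, 7.62 and 7.35 in 24 h GDC-0623, and at 72 h 8.46, 8.70 and 8.52 in DMSO and 8.14, 8.05 and 8.04 in GDC-0623. Treated arrays were below control arrays at both times. The effect was −0.44 ± 0.09 at 24 h (limma adjusted p = 0.0121) and −0.48 ± 0.09 at 72 h (adjusted p = 0.0045). The rise with time was 0.69 ± 0.08 in DMSO and 0.65 ± 0.10 in GDC-0623. The other Vegfa probe set gave −0.53 (called) and −0.31 (adjusted p = 0.0511).

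Ankrd37, a small ankyrin-repeat protein and HIF target, measured 5.82, 6.08 and 5.55 in 24 h DMSO and 6.16, 6.16 and 6.04 in 24 h GDC-0623. Its 72 h values were 7.16, 7.36 and 7.42 in DMSO and 6.69, 6.94 and 6.51 in GDC-0623. The groups overlapped at 24 h and not at 72 h. The difference with the inhibitor was 0.30 ± 0.12 at 24 h (limma adjusted p = 0.128) and −0.60 ± 0.12 at 72 h (adjusted p = 0.00743), and the effects differed by −0.90 ± 0.18 (adjusted p = 0.0203). That difference was not called without 24 h DMSO replicate 1, 72 h DMSO replicate 2 or 3, or 24 h GDC-0623 replicate 1 or 2 (adjusted p up to 0.0595). The rise with time was 2.82-fold in DMSO (1.5 ± 0.13) and 1.51-fold in GDC-0623 (0.59 ± 0.11), the latter not called without 24 h GDC-0623 replicate 2 or 3 (adjusted p up to 0.0707). Ankrd37 was called higher with the inhibitor at 24 h without 24 h DMSO replicate 2 (0.44, adjusted p = 0.027) and under scaling to hybridization controls (0.47, adjusted p = 0.00514).

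Ndrg1, a stress-responsive gene linked to differentiation and growth arrest, had the largest inhibitor effect of the 33 genes at 24 h. It measured 8.92, 8.60 and 9.01 in 24 h DMSO and 10.69, 10.24 and 10.21 in 24 h GDC-0623. At 72 h it measured 10.30, 10.27 and 10.39 in DMSO and 11.00, 10.63 and 10.59 in GDC-0623. The 24 h DMSO arrays stood alone at the bottom, and the 24 h treated arrays spanned the level of the 72 h DMSO arrays. The effect was 2.90-fold at 24 h (1.54 ± 0.14, limma adjusted p = 0.00014) and 1.34-fold at 72 h (0.42 ± 0.11, adjusted p = 0.0294), a difference of −1.12 ± 0.20 (adjusted p = 0.00973). In DMSO Ndrg1 rose 2.78-fold (1.48 ± 0.11), and its change in GDC-0623 was 0.36 ± 0.15 (not called). Of its 5 probe sets, 4 were called in the difference of effects, and all 5 gave a negative value (−0.73 to −1.31). For the 72 h effect, its other probe sets gave 0.38 (called, adjusted p = 0.0302) and 0.30, 0.31 and 0.26. The last values were not called (adjusted p = 0.131, 0.0844 and 0.163). The 72 h effect was not called without any one of the 3 DMSO arrays (adjusted p up to 0.102).

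Bnip3, which directs mitochondria to autophagy, measured 9.78, 9.95 and 9.68 in 24 h DMSO and 10.59, 10.53 and 10.27 in 24 h GDC-0623. The 72 h arrays read 10.96, 10.92 and 11.09 in DMSO and 11.74, 11.38 and 11.33 in GDC-0623. The groups did not overlap and the order was 24 h DMSO, 24 h GDC-0623, 72 h DMSO, 72 h GDC-0623. The inhibitor effect was 0.66 ± 0.10 at 24 h (limma adjusted p = 0.00228) and 0.49 ± 0.12 at 72 h (adjusted p = 0.0156), and the rise with time was 1.19 ± 0.09 in DMSO and 1.02 ± 0.13 in GDC-0623. The 72 h effect was not called without 72 h DMSO replicate 1 or 2 (adjusted p up to 0.066). Higd1a, a small mitochondrial protein, was 0.35 ± 0.08 higher with the inhibitor at 72 h (adjusted p = 0.0122), and its dimmer probe sets gave 1.16 and 1.02. Without 72 h DMSO replicate 2 the chosen probe set was not called (adjusted p = 0.0562), and its rise in DMSO (0.33 ± 0.07) was not called without 24 h DMSO replicate 2 or 3 or 72 h DMSO replicate 1 or 3 (adjusted p up to 0.0739).

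The collagen prolyl 4-hydroxylase subunits, which modify collagen chains so that they can fold, had their highest values in 72 h GDC-0623. P4ha2 measured 6.81, 6.70 and 6.54 in 24 h DMSO and 7.21, 7.01 and 6.98 in 24 h GDC-0623. After 72 h the values were 7.60, 7.17 and 7.64 in DMSO and 9.26, 8.50 and 8.46 in GDC-0623. Treated arrays lay above controls at both times, and replicate 1 of 72 h GDC-0623 was the highest array. The effect was 1.30-fold at 24 h (0.38 ± 0.09, limma adjusted p = 0.0209) and 2.41-fold at 72 h (1.27 ± 0.21, adjusted p = 0.00302), and with any one array left out the 72 h effect stayed between 1.01 and 1.41. The 24 h effect was not called without 24 h DMSO replicate 2 or 3 or 24 h GDC-0623 replicate 1 (adjusted p up to 0.0762), nor in 1 fit over all 12 arrays (adjusted p = 0.195). P4ha2 rose with time by 0.79 ± 0.13 in DMSO and 1.67 ± 0.19 in GDC-0623, and the difference between those effects was not called (0.89 ± 0.26, adjusted p = 0.11).

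P4ha1 measured 10.08, 10.15 and 9.95 in 24 h DMSO and 10.10, 10.15 and 10.10 in 24 h GDC-0623, and at 72 h 10.43, 10.28 and 10.38 in DMSO and 11.09, 10.76 and 10.86 in GDC-0623. The groups overlapped at 24 h (0.06 ± 0.07) and not at 72 h (0.54 ± 0.10, limma adjusted p = 0.00501). Its rise was 0.79 ± 0.10 in GDC-0623 and 0.30 ± 0.08 in DMSO, the latter not called without any one of the 6 arrays (adjusted p 0.0517 to 0.124). The difference between the 2 inhibitor effects was 0.48 ± 0.12 (adjusted p = 0.0662), and the other P4ha1 probe set gave 0.70 (adjusted p = 0.0495).

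Adm, which encodes the vasodilator peptide adrenomedullin, measured 5.77, 6.25 and 5.78 in 24 h DMSO and 5.48, 5.91 and 6.16 in 24 h GDC-0623. Its 72 h values were 7.01, 6.96 and 7.16 in DMSO and 7.67, 7.82 and 7.53 in GDC-0623. The groups overlapped at 24 h and not at 72 h. The rise with time was 2.16-fold in DMSO (1.11 ± 0.13, limma adjusted p = 0.00182) and 3.54-fold in GDC-0623 (1.82 ± 0.16, adjusted p = 0.000231). The inhibitor effect was −0.08 ± 0.18 at 24 h and 0.63 ± 0.10 at 72 h (adjusted p = 0.00212), and their difference was 0.71 ± 0.23 (adjusted p = 0.146) on this probe set and 0.78 (adjusted p = 0.0381) on the other. Car9, a cell-surface carbonic anhydrase often used as a hypoxia marker, lay at 3.89 to 4.63 in the group means, in the background range. Its rise was 0.52 ± 0.11 in DMSO, not called without 24 h DMSO replicate 1 or 2 (adjusted p up to 0.0726). In GDC-0623 it was 0.43 ± 0.11, not called without any of 5 of the 6 arrays, all but 72 h GDC-0623 replicate 1 (adjusted p up to 0.155). No inhibitor effect on Car9 was called.

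Over the 33 genes, the test of the difference between the 72 h and 24 h inhibitor effects called 3 lower (Slc2a1, Ndrg1 and Ankrd37) and none higher, while 1.46% of all genes were called lower and 1.62% higher (3.08% in either direction). These counts take 1 probe set per gene. Probe sets not chosen for Adm (0.78, limma adjusted p = 0.0381), P4ha1 (0.70, adjusted p = 0.0495) and Higd1a (0.81, adjusted p = 0.0375) were called higher. That of Higd1a averaged 3.59, in the background range. For Slc2a1, Ndrg1 and Ankrd37 the same contrast states that the rise with time was smaller in GDC-0623 than in DMSO. The treated arrays of Ndrg1 were the higher ones at both times, whereas those of Slc2a1 were the lower ones at both.

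**Figure D3:**
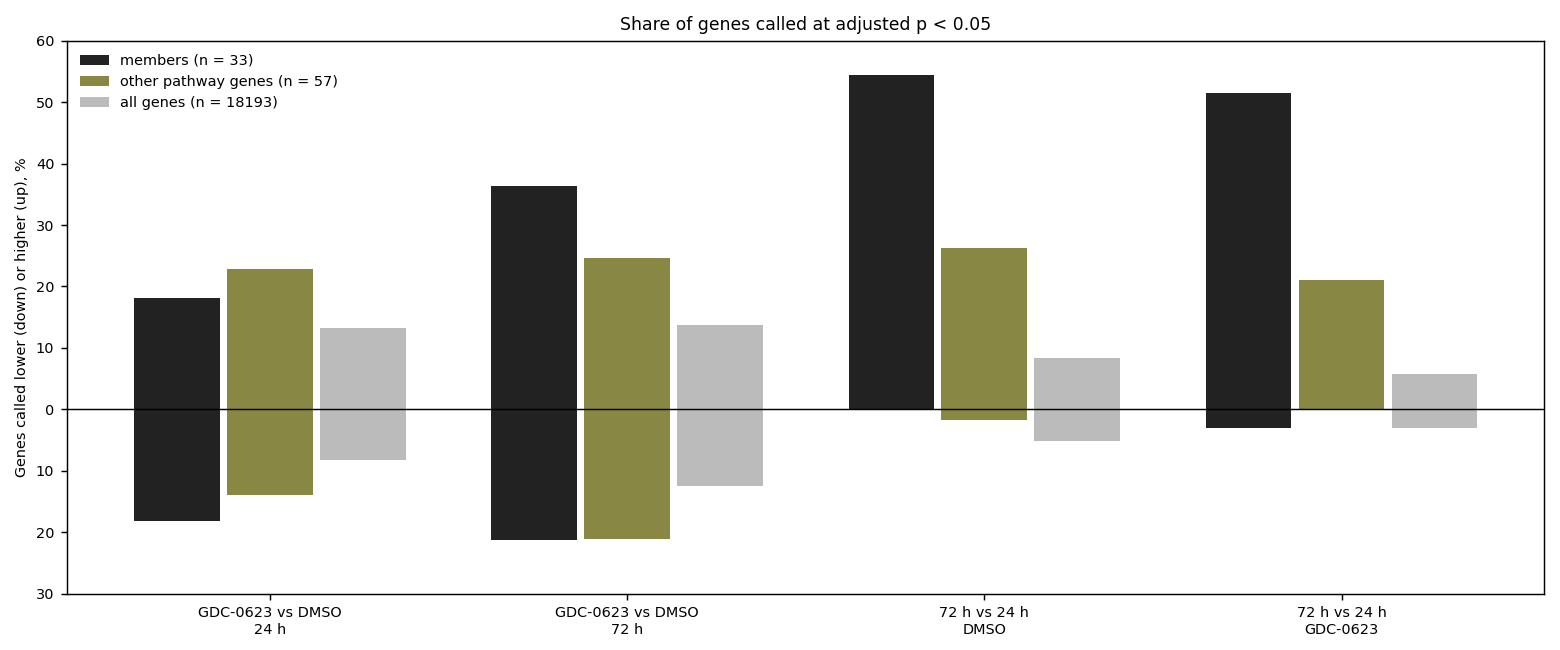
Share of genes called higher (upward bars) or lower (downward bars), in percent, at an adjusted p below 0.05 (limma), for the 33 measured genes, 57 other genes of the same pathways and all 18193 genes in 4 comparisons. The bars of the 33 genes with time in DMSO reach 54.5% upward and none downward, against 8.41% and 5.14% of all genes.

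Of 64 other genes of these pathways, 57 were measured. With time in DMSO, 15 rose and 1 fell (26.3% and 1.75%, against 8.41% and 5.14% of all genes). In GDC-0623 12 rose (21.1%) and none fell, against 5.79% and 3.11% of all genes. With the inhibitor, 13 were higher and 8 lower at 24 h (22.8% and 14.0%, against 13.3% and 8.23% of all genes), and 14 were higher and 12 lower at 72 h (24.6% and 21.1%, against 13.8% and 12.4%). Their median inhibitor effects were 0.00 and 0.01. Among 22 other hypoxia targets, 11 rose with time in DMSO, and with the inhibitor at 72 h 5 were higher and 4 lower (22.7% and 18.2%).

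The other hypoxia targets held genes of the same kinds as the 33. Ddit4, an inhibitor of the growth kinase mTORC1, measured 8.51, 8.38 and 8.06 in 24 h DMSO, 8.89, 8.85 and 8.40 in 24 h GDC-0623, 10.23, 10.41 and 10.68 in 72 h DMSO and 9.33, 9.63 and 9.72 in 72 h GDC-0623. It rose 4.36-fold in DMSO (2.12 ± 0.14) and 1.8-fold in GDC-0623 (0.85 ± 0.15), and the inhibitor effects differed by −1.28 ± 0.22 (limma adjusted p = 0.00783). Ero1a, an oxidase of protein folding in the endoplasmic reticulum, measured 9.62, 9.73 and 9.69 in 24 h DMSO, 9.05, 9.16 and 9.01 in 24 h GDC-0623, 11.15, 11.17 and 11.09 in 72 h DMSO and 9.63, 9.84 and 9.69 in 72 h GDC-0623. Its 72 h treated arrays lay at the level of the 24 h DMSO arrays, and its effects differed by −0.81 ± 0.10 (adjusted p = 0.00102). Stc2, a secreted glycoprotein of stress responses, was lower by −1.02 at 24 h and −1.49 at 72 h, and Hilpda, a lipid droplet protein, by −0.45 at 24 h. At 72 h Hilpda averaged 8.47 in DMSO and 7.75 in GDC-0623, without overlap.

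On the higher side, Plod1, a lysyl hydroxylase of collagen, was 1.05 ± 0.11 higher with GDC-0623 at 72 h and rose with time by 0.97 in GDC-0623. At 24 h Plod1 averaged 8.09 in DMSO and 8.59 in GDC-0623, without overlap, and at 72 h 8.51 in DMSO. The transcriptional repressor Bhlhe40 was 0.74 higher with the inhibitor at 24 h and rose with time by 1.13 in DMSO and 1.20 in GDC-0623. At 72 h Bhlhe40 averaged 9.09 in DMSO and 9.9 in GDC-0623, without overlap. Insig2, a regulator of sterol synthesis, was 0.93 higher with the inhibitor at 24 h. Its 72 h averages were 7.73 in DMSO and 8.25 in GDC-0623, without overlap. Nfil3, a leucine zipper repressor, rose by 1.19 in DMSO, and Fam162a, a mitochondrial protein, by 0.90 in GDC-0623. Nfil3 averaged 7.53 at 24 h and 8.13 at 72 h in GDC-0623, and Fam162a 11.13 and 11.7 in DMSO. Plod2, another lysyl hydroxylase of collagen, did not pass the test with the inhibitor (−0.03 ± 0.10 at 24 h and 0.04 ± 0.10 at 72 h).

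**Figure D4:**
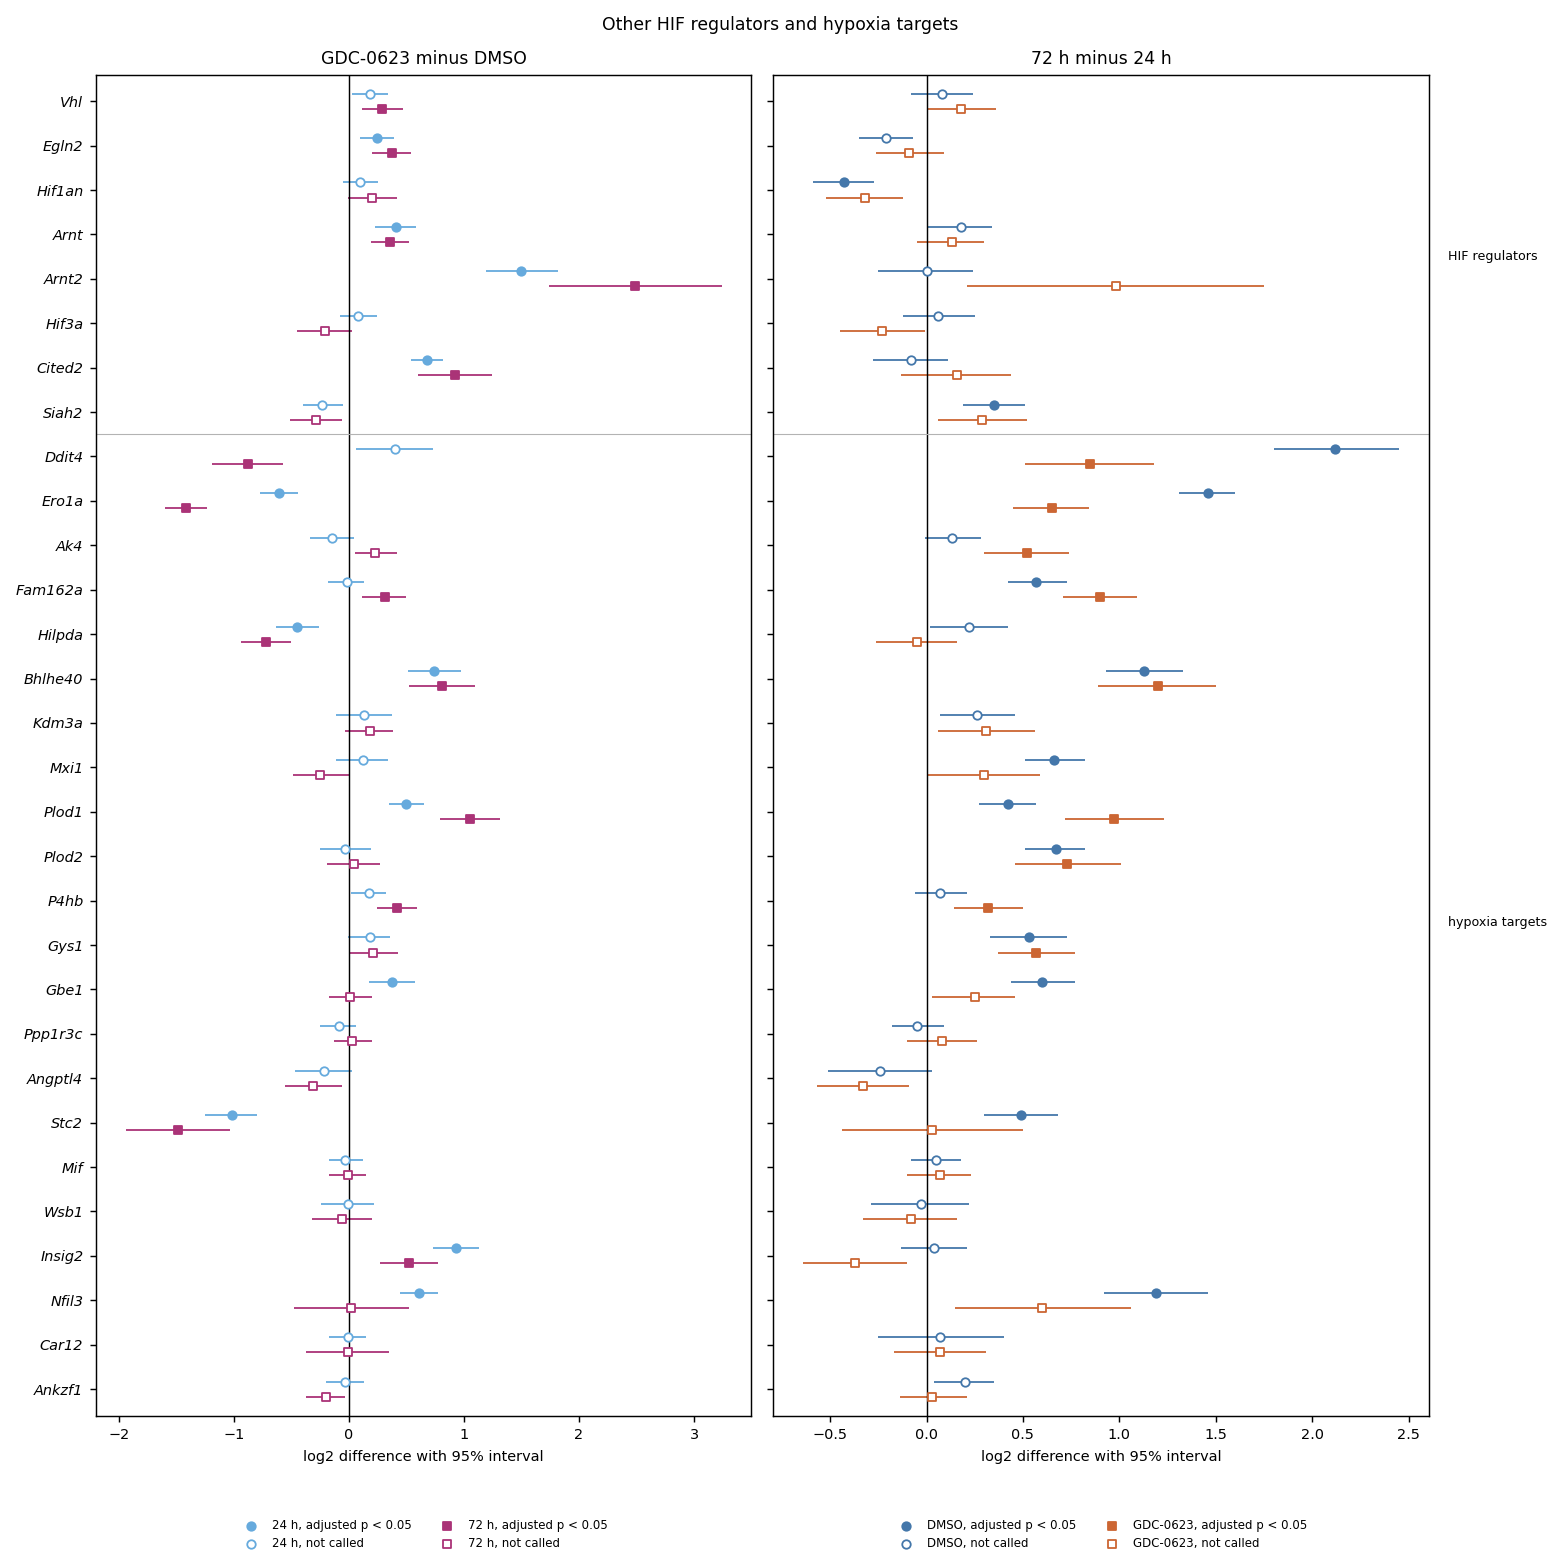
Log2 differences (x axis) with 95% intervals for 8 other HIF regulators and 22 other hypoxia targets, in the same layout as the plot of the 33 genes, with filled symbols called at an adjusted p below 0.05 (limma). Arnt2 has the largest positive inhibitor effects (1.5 and 2.49), and Ero1a and Stc2 the largest negative ones at 72 h (−1.42 and −1.49).

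Of 8 other HIF regulators, 4 were called higher with the inhibitor at 24 h and 5 at 72 h, and none lower. Of all genes, 13.3% and 13.8% were called higher. Of the HIF components given above, Egln3 was called lower at both times and Hif1a higher at both. Arnt2, a dimerisation partner of HIF subunits found mainly in neural tissue, measured 4.41, 4.48 and 4.10 in 24 h DMSO, 6.08, 5.55 and 5.87 in 24 h GDC-0623, 4.22, 4.35 and 4.41 in 72 h DMSO and 7.74, 6.10 and 6.61 in 72 h GDC-0623. Its DMSO arrays lay in the background range, and replicate 1 of 72 h GDC-0623 was above the other 2. The effect was 1.5 ± 0.14 at 24 h (limma adjusted p = 0.000139) and 2.49 ± 0.33 at 72 h (adjusted p = 0.000992). Cited2, which competes with HIF for its coactivator, was higher by 0.68 and 0.92. With time in DMSO, Hif1an, the asparaginyl hydroxylase that blocks HIF activity, fell by 0.43.

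The enzymes around glycolysis are given beside 13.8% of all genes called higher and 12.4% lower with the inhibitor at 72 h. Of 13 other genes of glycolysis and gluconeogenesis, 2 were higher and 3 lower with the inhibitor at that time (15.4% and 23.1%), among them Bpgm, which makes 2,3-bisphosphoglycerate (0.81 ± 0.10), and Pck2, the mitochondrial form of phosphoenolpyruvate carboxykinase (−0.95 ± 0.13). Pck2 was also lower at 24 h (−0.45) and rose with time in DMSO by 1.05. At 24 h Bpgm averaged 7.31 in DMSO and 7.95 in GDC-0623, without overlap. Of 6 pentose phosphate genes, none was higher and 3 were lower at 72 h (limma), with a median of −0.26. Of 8 genes of pyruvate entry to mitochondria, 2 were higher and 2 lower.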

How the data were processed

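The authors deposited log2 values per probe set, made by robust multichip averaging (RMA, version not given in the sources used here), which quantile normalises the arrays, so that a shift common to most genes is removed. Of 45101 probe sets, 64 controls were left out. The platform annotation gave the gene names, and 1 probe set stood for each of 18193 genes. Groups were taken from the labels and compared with limma 3.58.1 (lmFit, eBayes, two-sided) in R 4.3.3 on the arrays concerned (all 12 for the difference of effects), with Benjamini-Hochberg adjustment over 45037 probe sets and a threshold of 0.05. Errors are standard errors of the fit. The labels call the samples biological replicates but give no culture of origin, so the p-values measure the spread between these samples, and their number limits the precision.

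Array values are given for the 6 largest called rises and falls per comparison and for Slc2a1, Ldha, Hif1a and Vegfa, and up to 4 other pathway genes per comparison and direction are named. The members and lists were chosen with earlier results of these data known. Ddit4, Ero1a and Arnt2 are given by array, chosen after their values were seen. The fit was tested on simulated data. Alternatives were a replicate block, a filter on dim probe sets (at least 5 on at least 3 arrays), scaling to hybridization controls, a trended and robust prior, array weights, the mean of a gene's probe sets, 1 fit over 12 arrays and omission of each array. Promoter windows are from RefSeq (GRCm38.p6), as are coordinates. Figures were drawn with matplotlib 3.10.9.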

Additional observations from a re-analysis of the deposited data

Results flagged for a closer look

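The test of the inhibitor effect at 72 h minus that at 24 h (limma, 12 arrays) singled out 3 of the 33 genes: Slc2a1 at −0.68, Ndrg1 at −1.12 and Ankrd37 at −0.90. For Slc2a1 the effects were −0.24 and −0.92, for Ndrg1 1.54 and 0.42, and for Ankrd37 0.30 (not called) and −0.60.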

How the results depend on the processing

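Of 70 calls of the 33 genes, none reversed under any alternative run. Array weights and the trended and robust prior kept 70, the dim filter 68 of the 68 it could test, 1 fit over all 12 arrays 66 of 67, the mean of a gene's probe sets 63 and scaling to hybridization controls 57. That scaling moved the median of all genes by 0.17 for the 24 h inhibitor effect, −0.12 for time in GDC-0623 and −0.16 for the difference of effects, and left 2 genes lower at 24 h in place of 6, with 8 higher in place of 6 (Pfkm and Ankrd37 added). Under it Slc2a1 (−0.08), Slc2a3 (−0.14), Slc16a1 (−0.20) and Vegfa (−0.27) were not called at 24 h. Pfkfb3 was called lower with time in DMSO (1 in place of 0) under the dim filter, the scaling, the trended prior and the replicate block. In the difference of effects, 1 gene was called higher in place of 0 under the replicate block (P4ha2) and under the dim filter (P4ha1), and 2 under the trended prior (Ldha and P4ha1) and under the mean of probe sets (P4ha1 and Higd1a). The cause was not tested. Leaving out 1 array kept 348 of 438 calls, with fewer samples in each fit. The numbers called higher and lower then ranged over 5 to 6 and 4 to 5 for the inhibitor at 24 h, 6 to 10 and 7 to 8 at 72 h, 14 to 16 and 0 to 1 for time in DMSO, 11 to 14 and 0 to 1 for time in GDC-0623, and 0 to 1 and 2 to 3 for the difference of effects. The count higher at 72 h was 6 without 72 h DMSO replicate 2 and 7 without replicate 1, and that with time in GDC-0623 was 11 without 24 h GDC-0623 replicate 2 or 3. Samples of the same replicate number were not taken as paired. Of 18 correlations of their deviations, 7 exceeded 0.1 (range −0.04 to 0.29), and 14 of the 18 were highest with their own number. Whether equal numbers mark a shared origin was not tested. With the replicate block 64 of the 70 calls were kept, and the change of Ndrg1 with time in GDC-0623 was called (0.36, limma adjusted p = 0.0278). The values are logarithms already, so no pseudocount was varied. RMA values carry no detection call, and low ones cannot be told from background, which limits Aldoc, Eno2, Epas1 and Car9.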
